A study of Rattus norvegicus with 8 samples.

Results

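Coagulation and fibrinolysis were followed through 32 listed rat genes, comprising clotting factors, their inhibitors, the enzymes of the vitamin K cycle and the genes of clot breakdown. Each gene was represented by its brightest probe in the sample channel. Members were found by the rat gene symbol to which a probe's transcript identifier mapped, and the arrays' own gene names were not used. Of the 32 genes, 22 were measured well above background and tested among the 10566 genes or unnamed probes tested in all. A further 5 (F3, F8, Pros1, Plau and Tfpi) had a probe that was not well above background. For 5 more (F5, F11, F13b, Proz and Vwf) no probe identifier mapped to the gene, called no named probe here.

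Livers came from male Sprague-Dawley rats at postnatal day 21 that had stayed with their birth mothers. Dams of the Control group received corn oil alone. Dams of the 0.5MAhR group, called the mixture group here, received a corn oil solution of methyl mercury, polychlorinated biphenyls and organochlorine pesticides, dosed at 0.5 mg/kg/day. To these were added agonists of the aryl hydrocarbon receptor (AhR), namely non-ortho polychlorinated biphenyls, dibenzodioxins and dibenzofurans, for a dioxin-equivalent dose of 6.3 ng/kg/day, through gestation and lactation. RNA of 2 pups was pooled at random for each array, giving 4 control and 4 mixture pools from 8 pups of each group, and no label used here names the pups' litters, which means that p-values measure the spread between pools. Every value below is a log2 ratio of the liver pool (Cy5) over a reference RNA from 14 rat cell lines (Cy3), and a difference is mixture minus control on that log2 scale.

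Blood clots when a cascade of proteases turns prothrombin into thrombin, which cuts fibrinogen into fibrin. Hepatocytes make most of the circulating factors and inhibitors, and several factors need a carboxylation that depends on vitamin K. Endothelial cells contribute factor VIII, von Willebrand factor, thrombomodulin, tissue factor pathway inhibitor and tissue plasminogen activator, so a liver sample holds both kinds of transcript. The AhR is a transcription factor that binds dioxins and related planar compounds.

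No coagulation or fibrinolysis gene passed the threshold of an adjusted p of 0.05, whether the position of the array on the slide was fitted or not. Among all genes tested, 0.0473% passed with slide column fitted and 0.00946% passed without it. All 18 tested hepatocyte-made members had a lower mean in the mixture pools, with a median difference of -0.17, against 53.2% of all genes tested and an all-gene median of -0.01. The count depended on the scaling, at 16 of 18 in Cy5 alone (Hrg and Serpinc1 turned) and 17 of 18 with median centring (Serpind1 turned). Of all genes tested, 55.1% were lower in Cy5 alone and 41.6% with median centring. Kininogen (Kng1) stood lowest relative to its error, at a difference of -0.50, and the 3 fibrinogen chains lay at -0.22 to -0.29. The 2 tested endothelial members, Thbd and Plat, differed by 0.02 and -0.01.

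All 8 arrays shared 1 slide, whose 2 columns each carried 2 arrays of either group. By limma's term for slide column, 56.9% of all genes differed between the columns, as did 11 of the 22 tested members. Slide column was therefore fitted, and differences within each column are given. The median Cy5 signal was 81 to 94 intensity units, the share of spots well above background in the sample channel was 42.9% to 49.2%, no spot was saturated, and 4 arrays in a group limit the precision. Hepatocyte markers identified the tissue, with 11 of 11 above background and control means 3.33 to 9.33 above the reference. Cyp1a1, the classical AhR target, rose from 0.90 ± 0.53 (SD, n = 4) to 4.93 ± 0.59 (SD, n = 4), with a limma adjusted p of 0.00278.

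**Figure D1:**
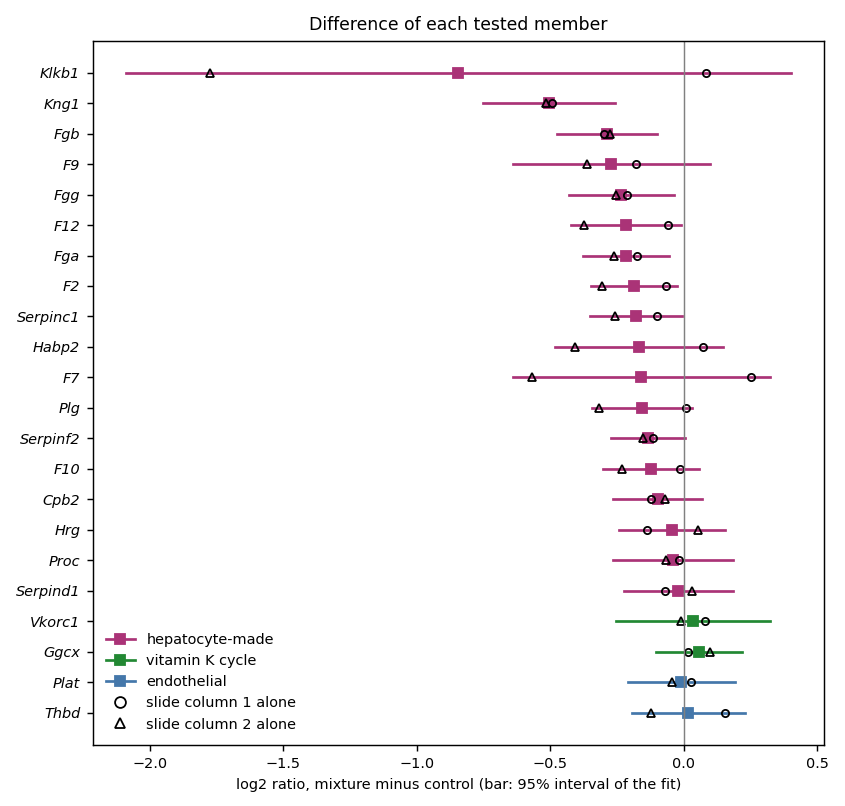
Difference in log2 ratio, mixture minus control, for the 22 tested members (squares, coloured by source), with the 95% interval of the fit as bars and the differences within slide column 1 (open circles) and slide column 2 (open triangles). All 18 hepatocyte-made squares lie below 0, from -0.84 for Klkb1 to -0.02 for Serpind1, while Plat and Thbd lie at -0.01 and 0.02.

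Fibrinogen is the clot's building material, and its chains are encoded by Fga, Fgb and Fgg, neighbouring protein-coding genes on chromosome 2. Upstream sequences are shown for these chains and for Kng1, the members with the 4 smallest unadjusted p-values, because the chains share their arrangement in the genome and stood at like differences. They are the 250 bases before the gene start from RefSeq, assembly GRCr8, read 5′ to 3′ on the gene's strand, at chr2:170671919-170672168 (plus strand) for Fga, chr2:170700876-170701125 (minus strand) for Fgb, chr2:170652833-170653082 (plus strand) for Fgg and chr11:91340149-91340398 (minus strand) for Kng1. Capitals mark matches to the motifs searched on both strands.
Fga: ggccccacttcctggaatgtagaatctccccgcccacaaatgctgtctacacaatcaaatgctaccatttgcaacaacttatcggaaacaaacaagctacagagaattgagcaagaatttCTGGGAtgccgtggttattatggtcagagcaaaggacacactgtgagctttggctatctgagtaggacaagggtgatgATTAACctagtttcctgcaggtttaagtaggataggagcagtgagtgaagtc
Fgb: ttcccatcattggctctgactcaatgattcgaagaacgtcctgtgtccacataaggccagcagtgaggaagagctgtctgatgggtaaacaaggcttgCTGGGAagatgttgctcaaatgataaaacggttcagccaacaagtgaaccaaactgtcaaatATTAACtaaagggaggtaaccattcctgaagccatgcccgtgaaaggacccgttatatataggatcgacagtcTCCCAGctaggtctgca
Fgg: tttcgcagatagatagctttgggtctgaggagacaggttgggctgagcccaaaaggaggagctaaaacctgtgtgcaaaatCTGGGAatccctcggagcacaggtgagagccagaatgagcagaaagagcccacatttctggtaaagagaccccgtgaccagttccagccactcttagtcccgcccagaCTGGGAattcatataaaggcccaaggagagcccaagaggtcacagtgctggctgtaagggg
Kng1: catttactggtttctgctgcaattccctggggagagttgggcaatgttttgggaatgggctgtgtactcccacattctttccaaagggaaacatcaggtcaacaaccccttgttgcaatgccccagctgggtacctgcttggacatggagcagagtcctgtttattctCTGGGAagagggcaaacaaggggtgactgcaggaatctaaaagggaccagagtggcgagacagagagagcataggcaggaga

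The letters searched were CTGGGA, the core found in interleukin-6 response elements of acute-phase genes. The other letters were GTTAAT for the hepatocyte factor HNF1, and GCGTG for the AhR. No match overlapped another. CTGGGA stood in all 4 printed sequences, with 2 matches each in Fgb and Fgg, and 25.8% of 27457 rat promoters of this length hold it. It stood in 9 of the 15 tested hepatocyte-made members that had a promoter sequence, and in 11 of all 24 members that had one. GTTAAT, matched in Fga and Fgb on the minus strand, stood in 6 of those 15, in 8 of the 24 and in 6.46% of all promoters. GCGTG stood in none of the 4 printed sequences, in 2 of the 15 (Klkb1 and Serpinf2), in 6 of the 24, with 3 matches in Vkorc1, and in 27.2% of all promoters. A match is a description of these letters and was not tested for binding.

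Fgb, the beta chain, had log2 ratios of 8.41, 7.77, 8.60 and 8.03 in control pools 5 to 8 and 7.55, 8.18, 7.71 and 8.23 in mixture pools 1 to 4. Control pools 5 and 7 and mixture pools 2 and 4 lay in slide column 1, where all 4 values were above those of column 2. Within each column both mixture pools lay below both control pools, while over all 8 pools the groups overlapped. The difference of Fgb was -0.29 (SE 0.084, unadjusted p = 0.00684, adjusted p = 0.460), or -0.30 within column 1 and -0.28 within column 2.

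Fga, the alpha chain, stood at 8.29, 7.84, 8.37 and 8.02 in the control pools and at 7.74, 8.16, 7.60 and 8.16 in the mixture pools. Fgg, the gamma chain, stood at 7.68, 7.07, 7.85 and 7.43 in the control pools and at 7.04, 7.56, 6.95 and 7.55 in the mixture pools. Both chains showed the pattern of Fgb, with no overlap within a column and overlap over all pools. Their differences were -0.22 (SE 0.071, adjusted p = 0.598) and -0.23 (SE 0.088, adjusted p = 0.694). All 3 chains were 0.45 to 0.59 higher in column 1 than in column 2, a larger step than the one between the groups, and without slide column in the fit their unadjusted p-values were 0.228 to 0.289. In Cy5 alone, without the reference channel, they differed by -0.19 to -0.21.

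Prothrombin (F2), the precursor of thrombin, had log2 ratios of 5.80, 6.07, 5.82 and 6.03 in the control pools and 5.72, 5.77, 5.76 and 5.72 in the mixture pools. Every mixture pool lay below every control pool. Of the tested members, F2 and Serpinf2 had groups that did not overlap, both lower in the mixture pools, against 0.53% of all genes lower and 0.786% higher in this way. The difference of F2 was -0.19 (SE 0.071, unadjusted p = 0.0274, adjusted p = 0.712), or -0.06 within column 1, -0.31 within column 2 and -0.07 in Cy5 alone.

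With each slide column read by itself, 6 members lay lower in the mixture pools without overlap in both columns, namely F2, Fga, Fgb, Fgg, Serpinf2 and Kng1, against 3.41% of all genes. By unadjusted p under 0.05 with slide column fitted, 7 members were lower (these 6 without Serpinf2, plus F12 and Serpinc1) and 0 were higher, against 2.84% of all genes lower and 3.5% higher. Without slide column the count was 1, Kng1, against 0.445% of all genes lower. With slide column fitted but median centring in place of loess, 1 member had an unadjusted p under 0.05, against 186 of 10566 genes.

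**Figure D2:**
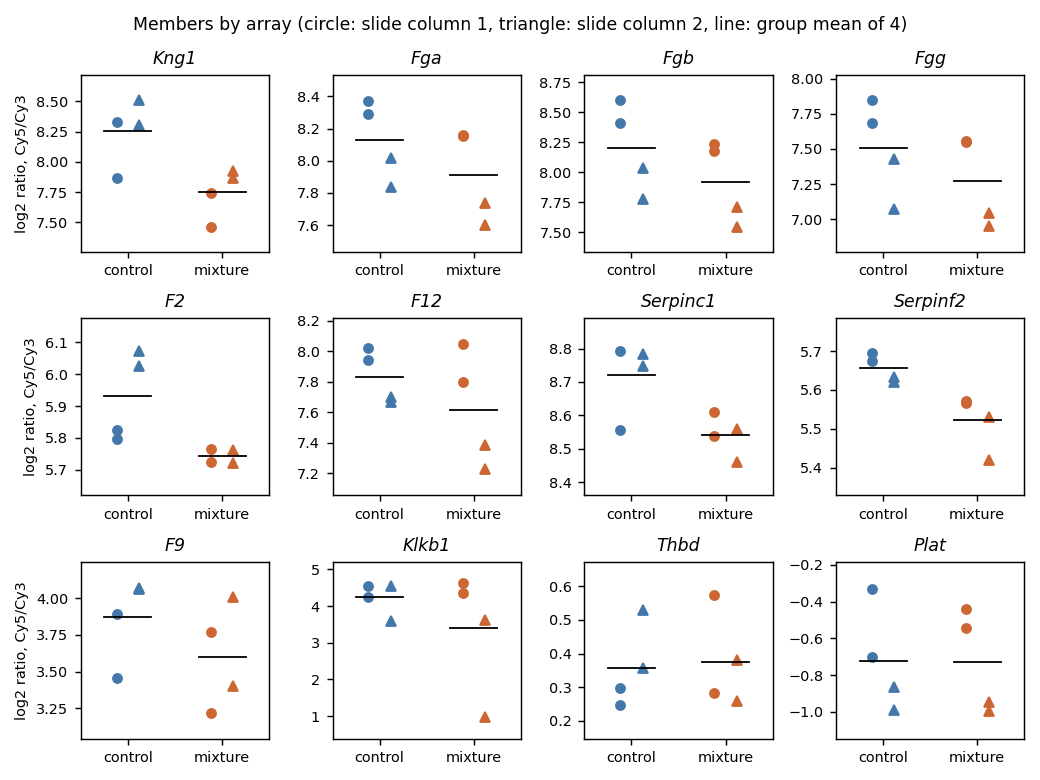
Log2 ratio over the reference (vertical axis, scaled per panel) on each of the 8 arrays for 12 members, with control pools in blue, mixture pools in orange, slide column 1 as circles and column 2 as triangles. The groups are apart for F2 and Serpinf2. For Kng1 and the fibrinogen chains they are apart within each column, and for Klkb1 mixture pool 3 lies at 0.98, below the other pools at 3.58 to 4.61.

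The contact system starts clotting on charged surfaces through factor XII, prekallikrein and high-molecular-weight kininogen, which also carries bradykinin. Kng1, the kininogen gene, stood at 7.87, 8.31, 8.33 and 8.51 in the control pools and at 7.86, 7.47, 7.93 and 7.74 in the mixture pools. Control pool 5 lay within the range of the mixture pools, and the other control pools lay above them. The means were 8.25 ± 0.27 (SD, n = 4) and 7.75 ± 0.20 (SD, n = 4), so that the mixture pools were 1.42-fold lower.

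The difference of Kng1 was -0.50 (SE 0.11, 95% interval -0.75 to -0.26), with an unadjusted p of 0.00120 and an adjusted p of 0.301. It was -0.49 in column 1 and -0.51 in column 2, and -0.50 in Cy5 alone. Over the 22 alternative settings it ran from -0.60 to -0.41, with adjusted p of 0.256 to 1.00. Kng2, a paralog of Kng1 whose transcripts may share signal with its probe, differed by -0.32 (unadjusted p = 0.00665, adjusted p = 0.457).

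F12, factor XII, had log2 ratios of 8.02, 7.67, 7.95 and 7.70 in the control pools and 7.23, 7.80, 7.39 and 8.05 in the mixture pools. Mixture pools 1 and 3, both in column 2, were the lowest of the 8, while mixture pool 4 was the highest. The difference was -0.22 (SE 0.092, adjusted p = 0.750), or -0.06 within column 1 and -0.38 within column 2.

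Klkb1 encodes prekallikrein and neighbours F11, which had no named probe here. Klkb1 stood at 4.26, 4.55, 4.53 and 3.58 in the control pools and at 3.61, 4.35, 0.98 and 4.61 in the mixture pools. Mixture pool 3 alone was low, and its spots read 60 and 29 net Cy5 units against 221.5 to 729.5 on the other arrays. The difference was the largest of any member at -0.84 (SE 0.55, adjusted p = 0.877), and it was -0.13 without mixture pool 3. By column it was 0.08 and -1.77, the latter in the column of that pool. On none of the arrays was the Cy3 signal of this probe, or those of F7 and F9, well above background, so these ratios rest on the liver channel.

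Factors VII, IX and X and protein C, like prothrombin, are carboxylated in the vitamin K cycle before secretion. F9, the factor lacking in hemophilia B, stood at 3.89, 4.07, 3.45 and 4.06 in the control pools and at 3.404, 3.22, 4.01 and 3.77 in the mixture pools. The groups overlapped, and the difference was -0.27 (SE 0.16, adjusted p = 0.872). With the processed signals of the scanner software it was -1.28 (adjusted p = 0.144), the alternative that moved F9 most. The probe of F9 had 1 spot per array, as had the brightest probe of Habp2.

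F7, the factor that starts clotting with tissue factor, differed by -0.16 (SE 0.21, adjusted p = 0.937), but by 0.25 in column 1 and by -0.57 in column 2. F10, the protease that cuts prothrombin, lies beside F7 on chromosome 16, and its difference was -0.12 (SE 0.080, adjusted p = 0.877), or -0.01 and -0.23 by column. The direction of F7 thus depended on the column, and that of F10 rested on column 2. F10 also showed the widest step between columns among the tested vitamin K-dependent factors, at 0.81. Proc, protein C, which cuts activated factors V and VIII, differed by -0.04 (SE 0.10). Pros1, protein S, its cofactor, was well above background on none of the arrays.

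The vitamin K cycle enzymes lay on the other side of 0. Ggcx, the carboxylase, stood at 0.84, 1.49, 1.04 and 1.61 in the control pools and at 1.60, 0.98, 1.69 and 0.94 in the mixture pools. Its column 2 pools were all above its column 1 pools, by 0.65 on average, and the groups overlapped. The difference was 0.06 (SE 0.072, adjusted p = 0.932), the highest of any member. Vkorc1, the reductase that warfarin blocks, differed by 0.03 (SE 0.13, 95% interval -0.25 to 0.32).

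Serpins check the cascade. Serpinc1, antithrombin, had log2 ratios of 8.56, 8.78, 8.79 and 8.75 in the control pools and 8.46, 8.54, 8.56 and 8.61 in the mixture pools. Control pool 5 lay among the mixture pools and the other control pools lay above them. The difference was -0.18 (SE 0.077, adjusted p = 0.774), but 0.02 in Cy5 alone, where the Cy3 reference signal of the probe was 0.10 higher on the mixture arrays. Serpind1, heparin cofactor II, differed by -0.02 (SE 0.091).

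Plasmin dissolves fibrin, and its precursor, its inhibitors and its activators were read next. Plg, plasminogen, stood at 6.39, 6.42, 6.40 and 6.49 in the control pools and at 6.07, 6.41, 6.21 and 6.40 in the mixture pools. The 2 column 2 mixture pools were low, and the column 1 pools of both groups stood together at 6.39 to 6.41. The difference was -0.16 (SE 0.083, adjusted p = 0.861), or 0.0071 within column 1 and -0.32 within column 2.

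Serpinf2, alpha-2-antiplasmin, the direct plasmin inhibitor, stood at 5.69, 5.63, 5.67 and 5.62 in the control pools and at 5.53, 5.57, 5.42 and 5.57 in the mixture pools. Every mixture pool was below every control pool, with a difference of -0.13 (SE 0.061, unadjusted p = 0.0544, adjusted p = 0.801). Cpb2, the carboxypeptidase that protects fibrin from plasmin, differed by -0.10 (SE 0.075). Habp2, a protease that can activate factor VII and urokinase, differed by -0.17 (SE 0.14), and its dimmer probe by -0.14. Plau, urokinase, was well above background on none of the arrays.

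Hrg, histidine-rich glycoprotein, which binds plasminogen and heparin, showed a difference that depended on the channel. Its log2 ratio was 7.64, 7.20, 7.62 and 7.30 in the control pools and 7.22, 7.64, 7.39 and 7.34 in the mixture pools, with overlapping groups and a difference of -0.04 (SE 0.089). In Cy5 alone Hrg was 0.42 higher in the mixture pools (unadjusted p = 0.00618, adjusted p = 0.365). The reference channel of this probe likewise read 0.42 higher (adjusted p = 0.122). Its net Cy3 signal was 339 ± 15.6 (SD, n = 4) with control pools and 474 ± 39.5 (SD, n = 4) with mixture pools. The labels give the same reference RNA for every array, and 0.00946% of genes passed the threshold in Cy3, none of them a member. Whether signal passed between the channels at this probe was not tested, and the ratio of Hrg, 1 of the 18 counted as lower, carries that limit. For the other members the Cy3 difference was between -0.07 and 0.10.

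Endothelial members were faint in the liver channel or had log2 ratios from -0.996 to 0.57. Thbd, thrombomodulin, which turns thrombin toward protein C, stood at 0.25, 0.36, 0.30 and 0.53 in the control pools and at 0.26, 0.28, 0.38 and 0.57 in the mixture pools. Plat, tissue plasminogen activator, stood at -0.33, -0.86, -0.70 and -0.99 in the control pools and at -0.996, -0.44, -0.94 and -0.54 in the mixture pools. The groups overlapped for both genes. Loess normalisation sets the 0 of these ratios, so 0 does not mark equality with the reference. In the control pools the mean net Cy5 and Cy3 signals were 100 and 244 for Thbd and 114 and 669 for Plat. The 95% interval of the difference was -0.19 to 0.23 for Thbd (adjusted p = 0.986) and -0.21 to 0.19 for Plat (adjusted p = 0.992).

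F8, factor VIII, was well above background in Cy5 on 0 arrays, with log2 ratios of -0.32, 0.02, 0.07 and 0.05 in the control pools and -0.09, -0.16, 0.12 and -0.05 in the mixture pools. Tfpi, which inhibits tissue factor with factor VII, was above it on 1 mixture array, with log2 ratios of -0.24, -0.30, -0.29 and -0.40 in the control pools and -0.03, -0.37, -0.01 and -0.30 in the mixture pools. At background such ratios give no level relative to the reference. F3, tissue factor itself, was above it on no array, although its Cy3 reference signal was above background on all 8. No fold is given for these genes, since both groups lay at background.

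Hepatocyte-made and endothelial members were set against each other by medians, with no test over genes. The hepatocyte-made median was -0.17 (-0.09 in column 1 and -0.27 in column 2). The endothelial median, which rests on 2 genes, was 0.00 (0.09 in column 1 and -0.08 in column 2). The gap was -0.18, and the gap between the class medians of each array had a spread of 0.082 (pooled SD between pools). When each array was left out in turn, the gap between groups ran from -0.24 to -0.15. It was -0.13 with median centring, -0.14 with processed signals, -0.15 in Cy5 alone and -0.20 without background correction. Both columns gave a lower value in the mixture pools for 12 of the 18 hepatocyte-made members, against 27.1% of all genes, and Cy5 alone gave a lower value for 16 of 18, against 55.1% of all genes. The lowest hepatocyte-made medians were those of mixture pools 1 and 3, both in column 2.

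**Figure D3:**
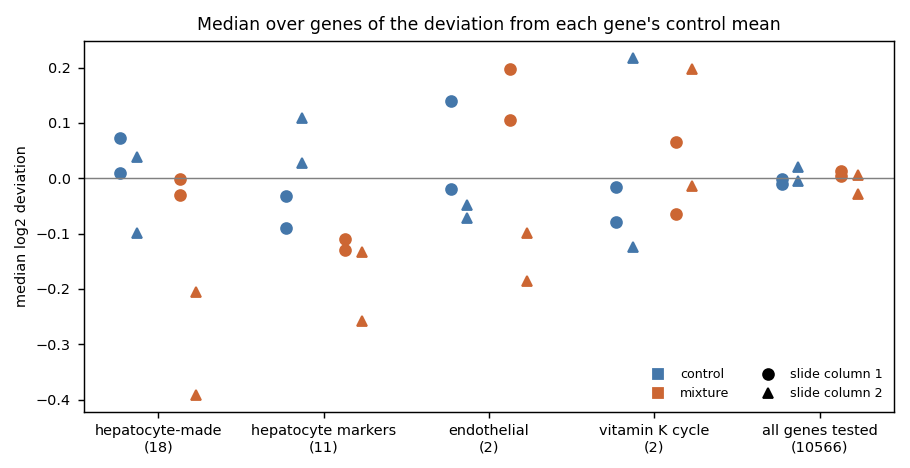
Median over the genes of a class of the deviation from each gene's control mean (log2 ratio), by array, with control pools in blue, mixture pools in orange, slide column 1 as circles and column 2 as triangles. For hepatocyte-made members the mixture pools lie at -0.39 and -0.21 in column 2 and at -0.03 and -0.0017 in column 1, and the control pools at -0.10 to 0.07, so the groups overlap.

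General hepatocyte markers lay on the same side as the hepatocyte-made clotting genes. All 11 of 11 markers had a lower mean in the mixture pools, with differences of -0.35 to -0.09, and none passed the threshold. Over the list the median was -0.12 (-0.08 within column 1, -0.28 within column 2). The mean log2 ratio of the list was 6.82 to 6.91 in the control pools and 6.58 to 6.83 in the mixture pools. In Cy5 alone 7 of the 11 markers were lower, with a median of -0.03, while the hepatocyte-made clotting genes stood at -0.14. Within column 1, 7 of the 11 markers were lower, against 46.2% of all genes. With median centring the marker median was -0.04 and that of the hepatocyte-made clotting genes -0.12. Kupffer cell markers were higher in 9 of 11 cases (median 0.15, list mean 2.86 to 3.15 in control and 2.92 to 3.395 in mixture pools), and of 18 endothelial markers 8 were tested and split 4 to 4 (median 0.00, list mean 1.91 to 2.06 in control and 1.88 to 2.21 in mixture pools). Erythroid markers were higher for 3 of 5 tested (median 0.15, list mean 4.79 to 5.14 in control and 4.82 to 5.31 in mixture pools) and lower for 0 of 5 in Cy5 alone. Stellate and fibroblast markers were higher for 5 of 8 (median 0.09, list mean -0.45 to -0.24 in control and -0.44 to -0.04 in mixture pools). By slide column the erythroid median was 0.40 in column 1 and -0.20 in column 2, with 0 of 5 higher in both. The stellate and fibroblast median was 0.25 and -0.11, with 1 of 8 higher in both. The Kupffer median was 0.19 and 0.05, with 6 of 11 higher in both. Of all 10566 genes, 2613 were higher in both columns. Cholangiocyte markers split 2 to 2 and platelet markers 1 to 1. The part of these markers in the clotting genes' differences was not tested, and in bulk liver fewer cells of a type and less RNA per cell cannot be told apart.

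Other genes of the pathway went both ways. Of 36 listed, 20 were tested, 13 lower and 7 higher in the mixture pools, with a median of -0.10 and none past the threshold. The median was -0.02 within column 1 and -0.14 within column 2. In Cy5 alone 13 of the 20 were lower, with a median of -0.03. Of all genes tested, 53.2% were lower, and 55.1% in Cy5 alone. Nqo1, a quinone reductase that can reduce vitamin K quinones, was 0.90 higher (unadjusted p = 0.000378, adjusted p = 0.191), with every mixture pool above every control pool. Gas6, a vitamin K-dependent ligand of TAM receptors, differed by -0.25, C4bpa, the alpha chain of C4b-binding protein, by -0.24, and Aifm2, a further vitamin K reductase, by -0.25. S100a10, a plasminogen receptor subunit, differed by 0.20. Their adjusted p-values ran from 0.436 to 0.729.

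Acute-phase genes, to which the fibrinogen chains belong, were all tested. Of 15, 10 were lower and 5 higher, with a median of -0.16 (-0.08 within column 1, -0.23 within column 2). Among all genes tested, 53.2% were lower. In Cy5 alone 9 of the 15 were lower, with a median of -0.03, against 55.1% of all genes. Saa4 differed by -0.25 (adjusted p = 0.416), Lbp by -0.50 (adjusted p = 0.425), A2m by -0.62 (adjusted p = 0.742) and Itih3 by -0.25 (adjusted p = 0.770). Of 24 regulators of hepatocyte genes, 19 were tested, 11 lower and 8 higher, with a median of -0.03. Stat3, which carries the interleukin-6 signal, differed by -0.31 (adjusted p = 0.683) and Onecut1, a hepatocyte factor, by -0.45 (adjusted p = 0.861). None of these genes passed the threshold.

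Duplicate spots of a probe gave a technical error to set beside these differences. Over 6729 probes the median absolute gap between the first 2 spots of a probe was 0.19 to 0.28 on the log2 scale, depending on the array. The gap was far wider for some members and took opposite signs in the slide columns. For Fga the first spot was 0.71 below the second on average in column 1 and 1.13 above it in column 2, and for Serpinf2 it was 0.74 below and 1.16 above. For Hrg the net Cy5 signals on control pool 6 were 33790 and 13016 at the same probe. Read from each spot by itself, the group difference was -0.49 and -0.52 for Kng1 and -0.20 and -0.23 for Fga. It depended more on the spot for other members, at -0.080 and -0.19 for Serpinf2, -0.095 and -0.22 for F7, -0.22 and -0.13 for Serpinc1, and -0.097 and 0.14 for Serpind1. The probe of Serpind1 had 10 spots, of which these are the first 2, and its difference over all of them was -0.02. Of 14 hepatocyte-made members with the first 2 spots measured on every array, 13 were lower in both, Serpind1 being the exception. The spots share the same pools and arrays and enter the ratios counted above. This count is therefore no separate support for a lower level, and no share over all genes is given for it.

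**Figure D4:**
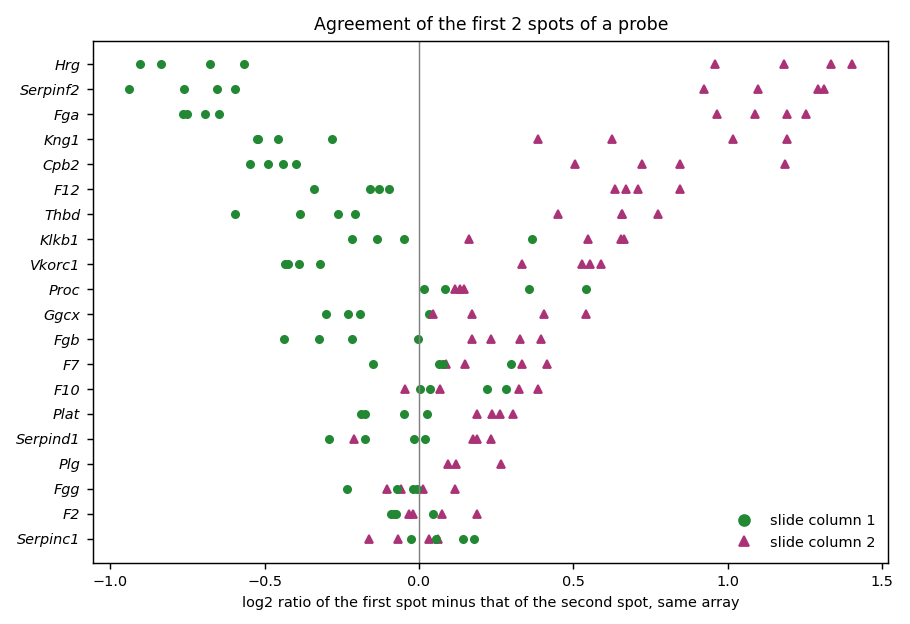
Log2 ratio of the first spot of a probe minus that of the second on the same array (horizontal axis) for 20 members, with slide column 1 as circles and column 2 as triangles. For Hrg, Serpinf2, Fga, Kng1 and Cpb2 every column 1 array lies below 0 and every column 2 array above it, while for Fgg, F2 and Serpinc1 all gaps are within 0.23.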

How the data were processed

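Each 2-colour Agilent array carried a liver pool in Cy5 and the universal reference RNA in Cy3, always in this orientation, so any dye bias was shared by both groups and not measured. The deposited intensity columns, per the file headers, are output of Agilent Feature Extraction version 11.0.1.1. Median foreground and background of both channels were used, with the software's marks for outlying spots and for spots well above background. The authors' deposited table of log2 ratios has no stated method. Set against loess ratios without background correction, its slope was 0.995 to 1.00 and r was 0.997 to 0.998, which settled its scale and direction but not its centring (column medians -0.0389 to -0.0326). That table entered as an alternative.

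Analysis used limma 3.58.1 under R 4.3.3. Background correction was normexp with an offset of 50, followed by loess within arrays with control spots given no weight. Outlier spots, 771 to 956 an array, were dropped, and a probe's value was the mean of its spots. RefSeq tables of assembly GRCr8 gave promoters and named 18005 of 30367 probes. Testing required a probe to be well above background in Cy5 on 3 or more arrays of either group, and a gene took its brightest probe. lmFit and eBayes compared the groups two-sided over 10566 genes or unnamed probes, with slide column as a fixed block and Benjamini-Hochberg adjustment over all of them. The code was tested on simulated data. Alternatives varied the block, background correction, normalisation, channel, filter, probe choice, variance model and arrays.

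Members, classes and lists were chosen with earlier results of these data known, and slide column entered the fit in that knowledge. Values by array are given for members with the 6 smallest unadjusted p-values in either fit, the largest differences, the fibrinogen chains and the endothelial members. Hrg was added after its values were seen. Other pathway genes are named by smallest unadjusted p, up to 6, and regulators and acute-phase genes up to 4.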

Additional observations from a re-analysis of the deposited data

Results flagged for a closer look

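Serpind1, heparin cofactor II, had a log2 ratio of 6.56 in mixture replicate 2, far from the other mixture pools, whose values ran from 6.86 to 6.89. The gap took a share of 0.906 of the range of the group, above Dixon's 95% critical value for 4 samples. It was 1 of 44 groups of 4 pools examined (22 members in 2 groups), and chance flags about 1 in 20 groups. Without that pool the difference of Serpind1 was 0.06 in place of -0.02.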

How the results depend on the processing

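No member passed the threshold of limma's adjusted p under any of the 22 alternative settings, of which 8 left out 1 array each. The smallest adjusted p of any member was 0.144 (F9, 1 spot per array, processed signals). In the main limma fit 7 members had an unadjusted p under 0.05, beside 670 of the 10566 genes tested. With slide column still fitted, the count was 1 with median centring (186 genes) and 2 in Cy5 alone (747 genes). It was 4 with a trended robust variance (655 genes) and 8 without background correction (690 genes). The median of the hepatocyte-made members stayed below 0 in all settings. Their lower count was 14 of 18 in column 1 (46.2% of all genes) and 16 of 18 in column 2 (56.1%). It was 16 of 18 in Cy5 alone (55.1%), 17 of 18 with median centring (41.6%) and 16 to 18 without single arrays (49.5% to 54.9%). The count of all genes past the threshold, 5, moved to 1 without slide column, 0 with slide row as a block (76 genes at an unadjusted p under 0.05), 2 within column 1, 0 within column 2 (591 genes), 3 with median centring, 0 with processed signals (860 genes), 14 in Cy5 alone, 3 with a trended robust variance, 3 with probes above background on all arrays, and 1 to 11 without single arrays. Of 484 member values, 453 kept their direction. That count includes settings that left every tested member's difference unchanged, so their agreement carries no information. They were the fit without slide column, slide row as a block, the trended robust variance and the changed filters on dim probes. Turned signs were 0.25 for F7, 0.0071 for Plg, 0.084 for Klkb1, 0.027 for Plat and 0.073 for Habp2 in column 1. In column 2 they were 0.032 for Serpind1, 0.052 for Hrg, -0.012 for Vkorc1 and -0.12 for Thbd. With median centring they were 0.0015 for Serpind1 and 0.0030 for Plat, with processed signals -0.040 for Thbd and 0.028 for Plat, and in Cy5 alone 0.020 for Serpinc1 and 0.42 for Hrg. Without single arrays the ranges that crossed 0 were -0.31 to 0.086 for F7, -0.076 to 0.058 for Serpind1, -0.12 to 0.030 for Proc, -0.097 to 0.037 for Hrg, -0.069 to 0.16 for Vkorc1, -0.068 to 0.079 for Thbd and -0.090 to 0.058 for Plat. The cause of these shifts was not tested. No pairing by replicate number was possible, because control pools 5 to 8 and mixture pools 1 to 4 share none, and slide row, which held 1 array of each group, entered as the block given above. Faint endothelial genes are limited by signal over background.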
